A study of Mus musculus with 4 samples.

Results

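Transcripts of TGF-beta signalling and of the myofibroblast contractile apparatus were compared between mouse fibroblasts transfected with siTIMP1 and with siControl. The gene set held 34 genes, chosen by gene name for their roles, of 37074 names on the array. All 34 names were found, on 64 probes, with Ccn2 and Ccn1 under their older names Ctgf and Cyr61. By role they were 11 ligands, latency proteins and receptors, 11 SMADs and feedback genes, 8 contractile genes and 4 secreted or surface targets.

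The cells were NIH3T3, an established mouse fibroblast line that the labels also call dermal fibroblasts, in medium with 2% fetal calf serum. The siTIMP1 group (2 arrays) received an siRNA against Timp1, which encodes a secreted inhibitor of matrix metalloproteinases, and the siControl group (2 arrays) received a control siRNA. Both siRNAs were delivered with a carrier named sCA in the labels, and the labels' protocols name neither added TGF-beta nor a time after transfection. Nothing in the labels says that the 2 samples of a group were grown separately. The p-values therefore reflect the spread of these samples alone, which may be technical.

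TGF-beta is secreted in a latent complex with LTBP proteins of the matrix, and once released it binds the type II receptor, which activates the type I receptor. The type I receptor phosphorylates SMAD2 and SMAD3, which enter the nucleus with SMAD4 and induce target genes, among them their own inhibitors. In fibroblasts this pathway is known for driving the myofibroblast state, in which smooth muscle actin and its partner proteins give the cell contractile force. Many contractile genes also carry CArG boxes, DNA elements bound by serum response factor (SRF).

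Probe sequences are shown for a receptor and for an actin, because the receptor comparison rests on more than 1 Tgfbr1 probe and because actin genes are close copies of each other. Each probe was 60 bases long, and both probes shown span an exon junction. The positions are chr4:47419898-47423556 on the plus strand for Tgfbr1 and chr19:34322995-34326249 on the minus strand for Acta2, both in mm9 per the file headers.
Tgfbr1: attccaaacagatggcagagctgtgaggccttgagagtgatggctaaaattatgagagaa
Acta2: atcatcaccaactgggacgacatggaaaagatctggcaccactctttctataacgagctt
Sequences as conserved as those of the actins can bind RNA of other actin genes, so the actin probes' values are uncertain in that respect.

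The promoters of 3 contractile genes are shown because they hold CArG boxes, written in capitals. The search covered the 250 bases before the start of each gene in RefSeq (GRCm38.p6), on both strands, for the 10-base CArG box with 6 of 6 inner bases A or T, or with at least 5 of 6. The windows are chr19:34255374-34255623 on the minus strand for Acta2, chr10:79988350-79988599 on the plus strand for Cnn2 and chr2:156775214-156775463 on the plus strand for Myl9.
Acta2: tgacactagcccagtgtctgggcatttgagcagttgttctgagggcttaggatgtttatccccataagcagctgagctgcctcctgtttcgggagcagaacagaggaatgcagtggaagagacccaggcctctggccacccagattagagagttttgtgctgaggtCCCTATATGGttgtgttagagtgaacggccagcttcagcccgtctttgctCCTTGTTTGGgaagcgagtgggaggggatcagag
Cnn2: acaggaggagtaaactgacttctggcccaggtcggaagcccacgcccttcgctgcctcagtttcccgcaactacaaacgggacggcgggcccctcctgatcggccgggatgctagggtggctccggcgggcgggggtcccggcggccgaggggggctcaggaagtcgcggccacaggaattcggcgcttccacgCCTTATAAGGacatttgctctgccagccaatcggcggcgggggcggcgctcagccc
Myl9: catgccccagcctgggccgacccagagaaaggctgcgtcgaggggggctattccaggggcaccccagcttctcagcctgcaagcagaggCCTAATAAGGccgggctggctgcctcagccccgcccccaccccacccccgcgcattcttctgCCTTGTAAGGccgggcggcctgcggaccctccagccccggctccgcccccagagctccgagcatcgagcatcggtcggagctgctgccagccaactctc
The Acta2 window holds 2 matches, 84 and 34 bases before the start, each with 5 of 6 inner bases A or T. The Cnn2 window holds 1 match 56 bases before the start, with 6 of 6, and the Myl9 window holds matches 161 and 99 bases before the start, the first with 6 of 6. RefSeq promoters were available for 21 of 34 members. The stricter box occurred for 2 of 6 contractile genes and 0 of 15 other genes of the set, against 1.47% of all 32851 promoters. The looser box occurred for 3 of 6 contractile genes and 3 of 15 others, against 8.59% of all promoters. Members were counted by gene, Ltbp1 and Tgfbr1 having more than 1 promoter, and the 32851 are single promoters, so the shares differ in unit. These matches describe letters in a window and are not shown to be sites in use.

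Each array had 59305 non-control spots, of which 50.4% and 45.9% were well above background on the siTIMP1 arrays and 50.7% and 52.1% on the siControl arrays, and no spot was saturated. All 4 arrays lay on 1 slide, with siTIMP1 at positions 3 and 4 and siControl at positions 1 and 2, so position and group cannot be told apart. Timp1 itself had processed signals of 1840 and 1492 on the siTIMP1 arrays, against 53297 and 67559 on the siControl arrays. This was a log2 fold change of -5.22 (SE 0.158, limma adjusted p = 0.0105). All 10 fibroblast markers were above background on every array, and their summed level was 1820 and 1817 in siTIMP1, against 1828 and 1724 in siControl (linear signal over the array's 75th percentile). In the smooth muscle list, Myh11 and Smtn (2 of 6 genes) were above background on every array, Des on 2 arrays and Synpo2 on 1, while Lmod1 and Myocd were above it on none. That list summed to 11.3 and 12.6 in siTIMP1, against 13.2 and 11.2 in siControl. The epithelial (2 of 6), endothelial (1 of 6), immune (4 of 6) and adipocyte (1 of 4) lists were also above background on every array only in part. Those above it on every array were Krt14 and Krt8, Vwf, Ptprc, Cd68, Cd3e and Itgam, and Fabp4. Itgam was bright, with signals of 1711 and 1681 in siTIMP1, against 2053 and 2056 in siControl. Epcam, Cdh1, Krt5, Cdh5, Kdr, Tek, Tie1, Adgre1, Cd79a, Adipoq, Plin1 and Cfd were above background on no array. The immune list summed to 14.7 and 13.8 in siTIMP1 and 16.7 and 16.9 in siControl.

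No member passed an adjusted p of 0.05 in either direction. limma called 0 of the 33 members tested, while it called 0.788% of all 17647 genes tested, with 15 higher (0.0850%) and 124 lower (0.703%) in siTIMP1. At an adjusted p under 0.1, Tgfbr1 and Tgfbr3 were the 2 members past it, against 2.45% of all genes. At an unadjusted p under 0.05 there were 4 of 33 members (12.1%), against 19.8% of all genes. These 4 were Tgfb3 and Ctgf, with higher values in siTIMP1, and Tgfbr1 and Tgfbr3, with lower values. The siTIMP1 and siControl arrays did not overlap for 10 of 33 members (30.3%), against 54.0% of all genes. In siTIMP1, 5 of these were higher (31.1% of all genes were) and 5 lower (22.9% of all genes were). The members' median log2 fold change was 0.04, with 19 positive and 14 negative values, against a median of 0.02 for all genes. Their median absolute log2 fold change was 0.11, against 0.17 for all genes. Fap, a surface protease of activated fibroblasts, was not well above background on any array with either of its probes and was not tested.

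**Figure D1:**
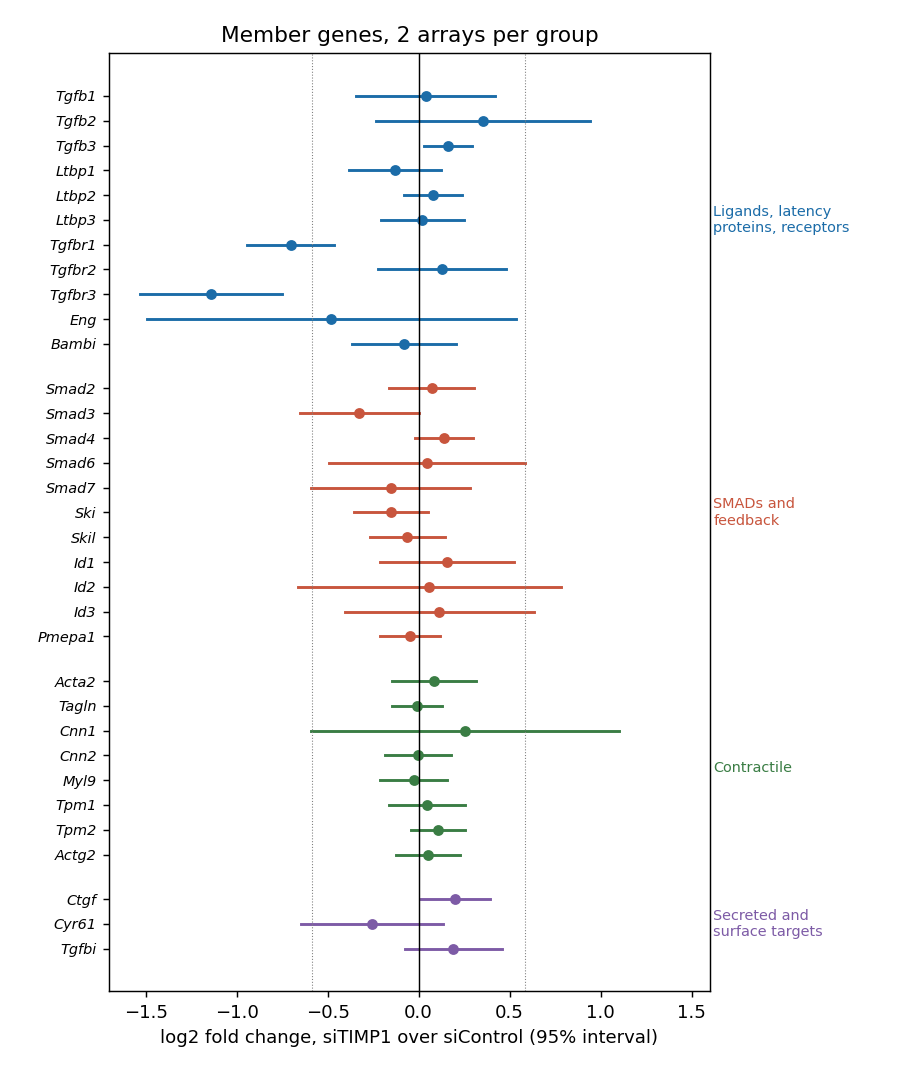
The log2 fold change of siTIMP1 over siControl (x axis) is plotted for the 33 members tested (rows, by role), with points for limma estimates, bars for 95% intervals and dotted lines at 1.5-fold (n = 2 arrays per group). Tgfbr1 at -0.70 and Tgfbr3 at -1.14 lie left of the other members, whose values run from -0.48 (Eng, not well above background in siTIMP1, with a bar wider than 2-fold) to 0.35 (Tgfb2).

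With 2 arrays per group, the number of arrays limits the precision, and an exact permutation test of 1 gene cannot give a p below 0.333. The 95% interval of the log2 fold change lay within 1.5-fold in both directions for 23 of 33 members (69.7%), against 59.4% of all genes. It reached beyond 2-fold for Cnn1, Tgfbr3 and Eng. For 20 of 33 members the gap between the 2 siControl arrays exceeded the gap between the groups (60.6%, against 46.4% of all genes).

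**Figure D2:**
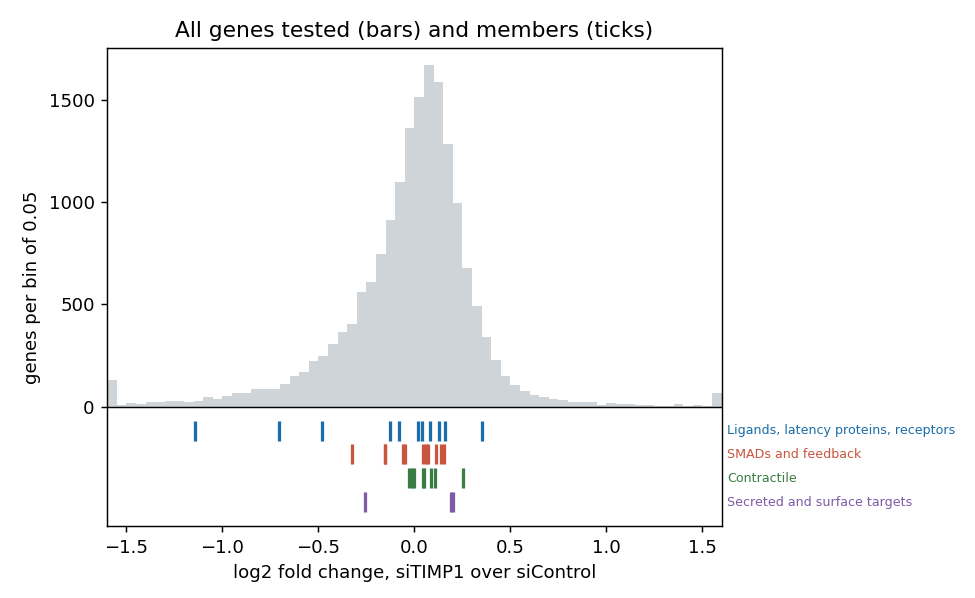
The bars count all 17647 genes tested by log2 fold change of siTIMP1 over siControl (x axis, bins of 0.05), with 124 genes beyond the left and 64 beyond the right edge gathered in the end bins. The ticks below give the members by role: the 8 contractile genes lie between -0.03 and 0.26, and the ligands, latency proteins and receptors spread from -1.14 to 0.35.

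Among the receptors, those of smallest p were Tgfbr3 and Tgfbr1, both with lower values in siTIMP1 and neither past the threshold. Tgfbr3, also called betaglycan, is a co-receptor that presents TGF-beta to the type II receptor. Its processed signals were 241.6 and 239.6 on the siTIMP1 arrays, against 599.9 and 440.7 on the siControl arrays. Both siTIMP1 arrays were therefore below both siControl arrays, and the siControl pair was the more spread. The log2 fold change was -1.14 (SE 0.153, 95% interval -1.53 to -0.75, limma adjusted p = 0.0642), which is 45.4% of the siControl level. The only Tgfbr3 probe lies at chr5:107535818-107535877 (mm9, minus strand), and its exon or UTR annotation was not used here.

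Tgfbr1 encodes the type I receptor, the kinase that phosphorylates SMAD2 and SMAD3. Its brighter probe, at chr4:47427421-47427480 (mm9, plus strand), had processed signals of 354.9 and 353.4 in siTIMP1, against 599.3 and 521.3 in siControl. The groups did not overlap, and the log2 fold change was -0.70 (SE 0.0939, 95% interval -0.94 to -0.46, limma adjusted p = 0.0642), or 61.4% of the siControl level. The probe across the exon junction, whose sequence is given above, had signals of 33.6 and 38.9 in siTIMP1, against 66.4 and 61.2 in siControl. It too had every siTIMP1 value below every siControl value, with a log2 fold change of -0.86 (SE 0.154, limma adjusted p = 0.103). The other 2 Tgfbr1 probes were above background on no array. In the whole table, 196 genes (1.11%) had a smaller p than Tgfbr1 and 197 (1.12%) had a smaller p than Tgfbr3. Lower log2 fold changes were found for 835 genes (4.73%) in the case of Tgfbr1 and for 291 genes (1.65%) in the case of Tgfbr3.

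Both receptors kept a negative log2 fold change in all 15 alternatives run, from -0.79 to -0.62 for Tgfbr1 and from -1.35 to -0.93 for Tgfbr3, and each was called in 5 of 15. In many of these runs the sign could not have changed. Every siTIMP1 array lay below every siControl array, so leaving out any array had to give a negative value. Changing the filter, the variance prior, the threshold or the handling of outlier spots left both estimates as they were. The kept sign is therefore no check in those runs. The adjusted p-values of Tgfbr1 and Tgfbr3 were 0.0414 and 0.0413 with robust eBayes, and 0.170 and 0.183 without a variance trend. With a siControl array left out, the replicate spread came from the siTIMP1 pair alone. That pair stood 0.0042 apart for Tgfbr1 and 0.010 for Tgfbr3 on the log2 scale. The siControl pair stood 0.17 and 0.41 apart. Whether the receptors passed the threshold depended on which array was left out. A lower array signal in bulk RNA does not tell fewer cells carrying the transcript from less of it per cell. The fibroblast marker Pdgfra, a growth factor receptor, stood at 587.2 and 506.1 in siTIMP1, against 1054 and 898.2 in siControl (log2 fold change -0.88, limma adjusted p = 0.0618). The fibroblast markers did not share this, since 7 of the 10 had positive and 3 negative log2 fold changes, with a median of 0.09. The part of Pdgfra in the receptor values was not tested.

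**Figure D3:**
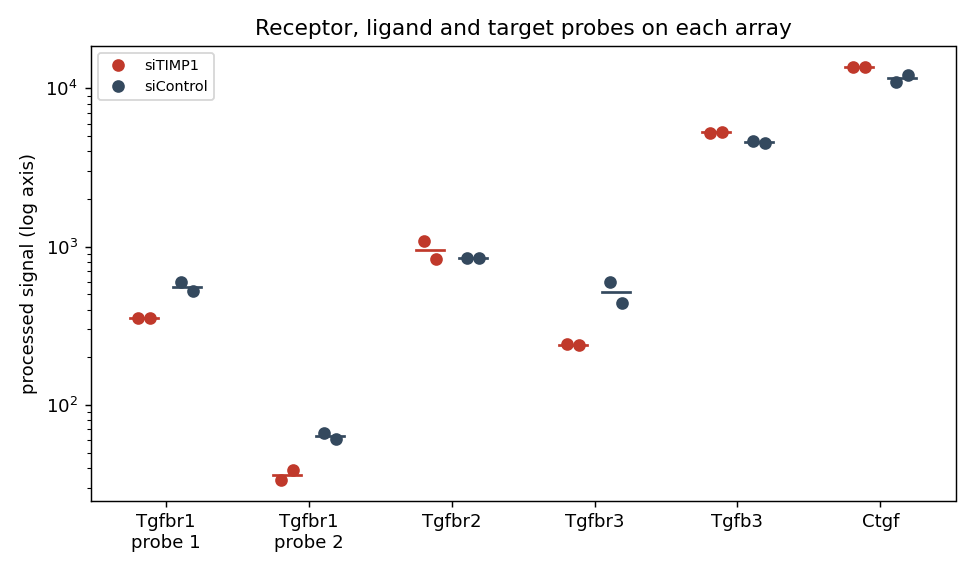
Processed signal (y axis, log scale) of 6 probes on each array, siTIMP1 left of siControl, with points for arrays and lines for group means (n = 2 each). Both Tgfbr1 probes and Tgfbr3 have every siTIMP1 array below every siControl array, Tgfb3 and Ctgf have them above, and Tgfbr2 overlaps; levels of different probes are not comparable.

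The remaining receptors were not near the threshold. Tgfbr2, the type II receptor that binds the ligand first, had a log2 fold change of 0.13 (95% interval -0.22 to 0.48, adjusted p = 0.632). The co-receptor endoglin, Eng, was not well above background on either siTIMP1 array and was tested only because it was so on both siControl arrays. Its signals were 8.98 and 10.4 in siTIMP1, against 17.7 and 9.63 in siControl, so the groups overlapped, siControl replicate 1 alone stood high, and no direction was resolved (limma adjusted p = 0.541). Without siControl replicate 1 the fitted log2 fold change of Eng was -0.06. Bambi, a decoy receptor without a kinase, had a value of -0.08 (adjusted p = 0.719). The differences between these receptors' fold changes were not tested.

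Of the ligands, Tgfb3 had the narrowest interval. Its signals were 5257 and 5322 in siTIMP1, against 4633 and 4545 in siControl. The groups did not overlap and differed by little, with a log2 fold change of 0.16 (SE 0.0520, 95% interval 0.03 to 0.29, limma adjusted p = 0.218). Tgfb2 had signals of 303.6 and 310.7 in siTIMP1, against 298.0 and 182.1 in siControl, so that siControl replicate 2 alone stood low. Its log2 fold change was 0.35 (95% interval -0.23 to 0.94, adjusted p = 0.449), and its other probe gave 0.16. Without siControl replicate 1 the Tgfb2 value was 0.69 (limma adjusted p = 0.0320), and without siControl replicate 2 it was 0.02. Tgfb1, the ligand best known in fibrosis, had a value of 0.04 (adjusted p = 0.906), and its other probe 0.07.

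The latency proteins tie the ligand to the matrix. Ltbp1 had signals of 1089 and 941.8 in siTIMP1, against 1049 and 1097 in siControl. The groups overlapped, with a log2 fold change of -0.13 (adjusted p = 0.514) and -0.17 on its other tested probe. Ltbp2, an LTBP of elastic fibres that does not bind latent TGF-beta, and Ltbp3, which does, had values of 0.08 and 0.02 (adjusted p = 0.517 and 0.912). Over the 11 ligands, latency proteins and receptors the median log2 fold change was 0.02, and 3 (27.3%) did not overlap between groups, against 54.0% of all genes.

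Among the SMADs and feedback genes, log2 fold changes ran from -0.33 to 0.15 with a median of 0.04, and 0 of 11 had an unadjusted p under 0.05 in limma (19.8% of all genes did). Smad3, a transcription factor activated by the type I receptor, had signals of 295.9 and 286.7 in siTIMP1, against 321.5 and 389.5 in siControl. The groups did not overlap, siControl replicate 2 was the highest, and the log2 fold change was -0.33 (SE 0.128, 95% interval -0.65 to 0.00, limma adjusted p = 0.274). Its other probe gave -0.12, and leaving out siControl replicate 1 gave -0.48, while leaving out siControl replicate 2 gave -0.17. Smad4, the partner shared by all receptor-activated SMADs, had signals of 1877 and 1918 in siTIMP1, against 1704 and 1636 in siControl. Its groups did not overlap either, with a log2 fold change of 0.14 (adjusted p = 0.316), but its 4 tested probes ran from -0.22 to 0.14. Smad2, activated alongside Smad3, had a value of 0.07 (adjusted p = 0.689) and -0.10 on its other probe.

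Inhibitors of the pathway showed values of similar size. Ski, a nuclear corepressor of SMAD complexes, had signals of 1190 and 1290 in siTIMP1, against 1313 and 1359 in siControl. The groups did not overlap, with a log2 fold change of -0.15 (adjusted p = 0.363). Its relative Skil had -0.06 (adjusted p = 0.704), with -0.04 and -0.24 on its other probes. Smad7, an inhibitory SMAD that blocks the type I receptor, had signals of 703.5 and 609.2 in siTIMP1, against 610.9 and 816.2 in siControl. Those groups overlapped, with a log2 fold change of -0.15 (adjusted p = 0.649) and -0.21 on the other probe. Smad6, an inhibitory SMAD acting mainly on BMP signalling, had 0.04 (adjusted p = 0.923), and Pmepa1, a membrane protein that keeps SMADs from the receptor, had -0.05 (adjusted p = 0.712).

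The Id genes encode inhibitors of basic helix-loop-helix factors and are known as targets of BMP signalling in particular. Id1 had signals of 911.3 and 926.7 in siTIMP1, against 704.5 and 909.3 in siControl. Only siControl replicate 1 stood apart, and the log2 fold change was 0.15 (adjusted p = 0.587). Id2 and Id3 had values of 0.06 and 0.11 (adjusted p = 0.926 and 0.785), and the dimmer Id2 probe gave -0.43. The siControl pair stood 0.40 apart for Id1, 0.75 for Id2 and 0.58 for Id3 on the log2 scale, each with replicate 1 the lower, a feature picked out after the values were seen.

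**Figure D4:**
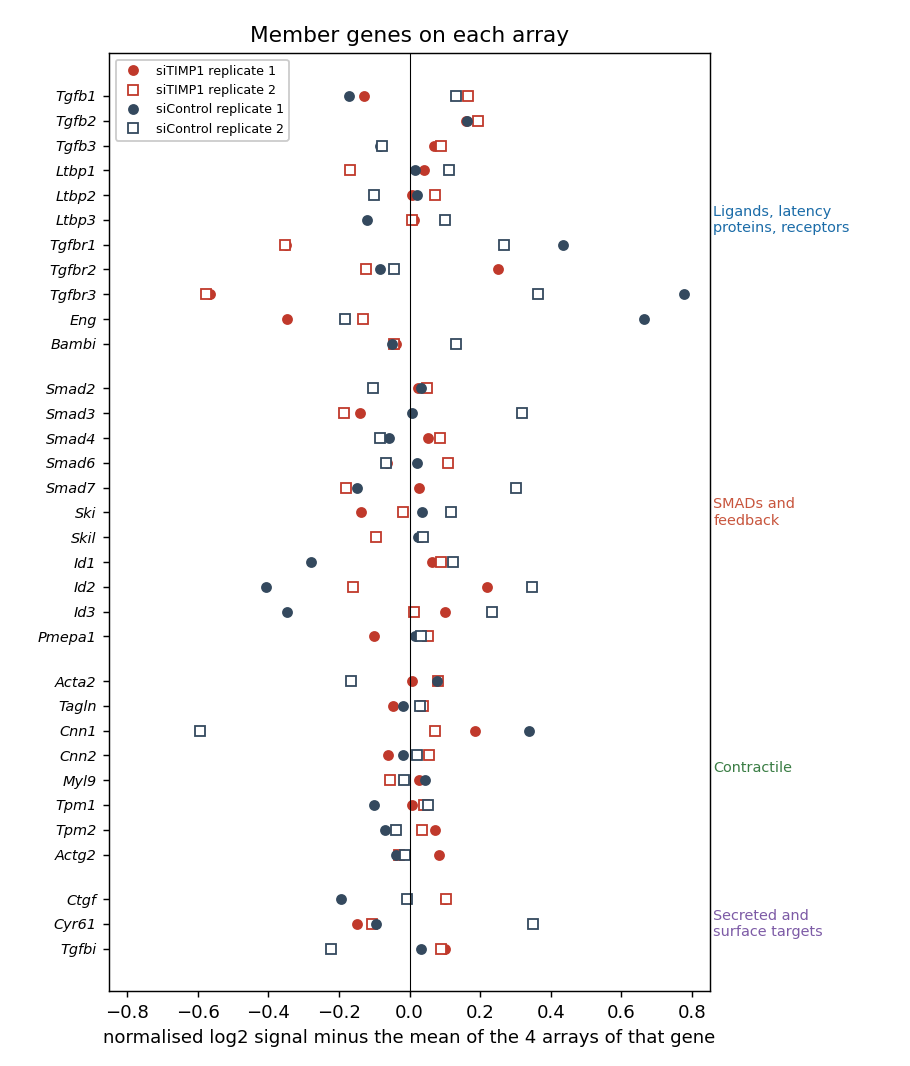
Normalised log2 signal of each of the 33 members tested on each array (x axis), minus the mean of the 4 arrays for that gene, with filled circles for replicate 1 and open squares for replicate 2. For Tgfbr1 and Tgfbr3 both siTIMP1 arrays lie left of both siControl arrays, while for Id1, Id2 and Id3 the 2 siControl arrays lie on either side of the siTIMP1 arrays.

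The contractile genes had the smallest differences of the 4 roles by median, with a median absolute log2 fold change of 0.05, against 0.17 for all genes. Of the 8 genes, 0 had an unadjusted p under 0.05 in limma (19.8% of all genes did) and 1 did not overlap between groups (54.0% of all genes did not). The interval lay within 1.5-fold for 7 of 8, against 59.4% of all genes, Cnn1 being the exception. Acta2, smooth muscle alpha-actin and the usual marker of myofibroblasts, had signals of 21224 and 22333 in siTIMP1, against 21873 and 18046 in siControl. The groups overlapped, siControl replicate 2 was the lowest, and the log2 fold change was 0.09 (95% interval -0.14 to 0.32, adjusted p = 0.624). The Acta2 probe whose sequence is given above had signals of 5362 and 5796 in siTIMP1, against 5182 and 4953 in siControl. It gave a log2 fold change of 0.09 with no overlap, and a further Acta2 probe gave -0.06. Actg2, the gamma-actin of smooth muscle, had signals of 2321 and 2143 in siTIMP1, against 2092 and 2081 in siControl. For Actg2, siTIMP1 replicate 2 lay close to siControl, with overlapping normalised values and a log2 fold change of 0.05 (adjusted p = 0.710).

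The tropomyosins stabilise actin filaments. Tpm2 had signals of 3433 and 3342 in siTIMP1, against 3054 and 3050 in siControl. It was the contractile gene without overlap, with a log2 fold change of 0.11 (95% interval -0.04 to 0.25, adjusted p = 0.383), and its other probe gave -0.23. Tpm1 had signals of 1298 and 1328 in siTIMP1, against 1183 and 1284 in siControl, with a log2 fold change of 0.05 (adjusted p = 0.779). The Tpm1 probes disagreed, since the other 3 gave -0.16, -0.18 and -0.62. The last of these had signals of 61.9 and 45.9 in siTIMP1, against 83.3 and 75.5 in siControl (SE 0.185, limma adjusted p = 0.196).

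The calponins and the myosin light chain regulate contraction at the filament. Cnn1, a calponin of smooth muscle, had signals of 45.1 and 41.6 in siTIMP1, against 49.1 and 25.2 in siControl. The siControl arrays enclosed the siTIMP1 arrays, and the log2 fold change of 0.26 had an interval that began at -0.59 and reached beyond 2-fold (adjusted p = 0.696). Cnn2, the calponin of non-muscle cells, had a value of -0.0042 (95% interval -0.18 to 0.18, adjusted p = 0.978). Tagln, an actin-binding protein also called SM22, had a value of -0.01 (95% interval -0.15 to 0.13, adjusted p = 0.934). Myl9, the regulatory light chain of myosin, had a value of -0.03 (95% interval -0.21 to 0.16, adjusted p = 0.861). Cnn2, Myl9 and Acta2, whose promoters are printed above with their CArG boxes, had log2 fold changes between -0.03 and 0.09 on their brightest probes. Tpm1, Tpm2 and Cnn1, whose windows held no match, had 0.05, 0.11 and 0.26. A link between the box and these values was not tested.

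The 3 secreted targets tested had differences in both directions, with a median log2 fold change of 0.19. Their median absolute log2 fold change was 0.20, the largest of the 4 roles, against 0.17 for all genes. All 3 did not overlap between groups (100%, against 54.0% of all genes), 2 higher and 1 lower in siTIMP1. Ctgf, a matricellular protein induced by TGF-beta, had signals of 13728 and 13736 in siTIMP1, against 10966 and 12212 in siControl. The groups did not overlap, with a log2 fold change of 0.20 (SE 0.0738, 95% interval 0.01 to 0.39, limma adjusted p = 0.252). Tgfbi, an adhesion protein of the matrix, had signals of 1199 and 1188 in siTIMP1, against 1121 and 918.4 in siControl. Its log2 fold change was 0.19 (adjusted p = 0.386), without overlap. Leaving out siControl replicate 1 gave 0.32 for Tgfbi and 0.11 for Ctgf, and leaving out siControl replicate 2 gave 0.06 for Tgfbi and 0.30 for Ctgf, none of these called. Cyr61, the closest relative of Ctgf among the members, had normalised log2 signals of 3.17 and 3.21 in siTIMP1, against 3.22 and 3.67 in siControl. Its groups did not overlap but lay close together at siControl replicate 1, and the log2 fold change was -0.26 (adjusted p = 0.416). Without siControl replicate 1 the Cyr61 value was -0.48 (limma adjusted p = 0.0310), and without siControl replicate 2 it was -0.03.

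Different probes of 1 gene were compared within the arrays. They read the same samples, so agreement between them cannot tell a group difference from one of sample or position. Of the 64 member probes, 53 were tested, 0 were called by limma (0.688% of all probes were), 6 had an unadjusted p under 0.05 (18.4% of all probes did) and 18 did not overlap between groups (53.0% of all probes did not). For 14 members more than 1 probe was tested, and for 8 of these all probes had the same sign, Tgfbr1 among them. The same share over all genes was not computed. The 6 members whose probes differed in sign were Acta2, Id2, Smad2, Smad4, Tpm1 and Tpm2.

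Further genes of the pathway were read from lists by role, and limma called 0 genes of these lists with all 4 arrays and the filter on dim probes. Without siControl replicate 1, when 5.99% of all genes were called, 6 SMAD targets, 2 CCN genes, 2 YAP and TAZ genes, 2 TGF-beta family genes and 1 contractile gene were called. Without siControl replicate 2, with 1.69% of all genes called, 2 SMAD targets and 1 TGF-beta family gene were. With no filter on dim probes, 0.99% of all genes were called. In that run, 1 gene was called in each of the SMAD target, TGF-beta family and contractile lists. Of 34 further TGF-beta family genes 27 were tested, with a median log2 fold change of -0.08. Unadjusted, 4 were higher (11.9% of all genes were) and 3 lower (7.99% of all genes were). Inhba, the subunit of activin A, had signals of 4133 and 4137 in siTIMP1, against 5634 and 6684 in siControl, without overlap (log2 fold change -0.61, limma adjusted p = 0.0927). The activin receptor Acvr2b had a value of 0.44, the BMP-binding protein Bmper 0.40 and the receptor-associated Tgfbrap1 -0.32 (limma adjusted p = 0.119, 0.116 and 0.148).

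Of 20 further SMAD targets 18 were tested, with a median of 0.25, 16 positive and 2 negative values. Among all 17647 genes, 9533 values were positive and 8114 negative. Unadjusted, 5 of the 18 were higher and 1 lower (11.9% and 7.99% of all genes). Ltbp4, at -0.12, stands in this list and in the TGF-beta family list. Snai1, a repressor of epithelial genes, had signals of 1064 and 1068 in siTIMP1, against 1570 and 1387 in siControl, without overlap (log2 fold change -0.51, limma adjusted p = 0.0807). Cited2, a transcriptional coregulator, had a value of 0.36, the angiogenic factor Vegfa 0.31 and the cell cycle regulator Rgcc 0.35. The median of this list depended on siControl replicate 2, without which it was 0.10.

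Of 29 further contractile genes and SRF or MRTF targets 26 were tested, with a median of 0.01. Unadjusted, 4 were higher and 2 lower, beside 11.9% and 7.99% of all genes. Mkl2, an SRF coactivator also called MRTF-B, had signals of 507.0 and 554.6 in siTIMP1, against 755.8 and 701.7 in siControl, without overlap (log2 fold change -0.50, limma adjusted p = 0.0988). Vcl, the focal adhesion protein vinculin, had a value of -0.59 (limma adjusted p = 0.118), the calponin Cnn3 0.40 and the myosin light chain Myl6 0.14. The YAP and TAZ list, all 12 genes of which were tested, had a median of 0.02, with 3 higher and 3 lower unadjusted (11.9% and 7.99% of all genes). That median was -0.07 without siControl replicate 1, 0.10 without siControl replicate 2 and -0.03 without siTIMP1 replicate 1. Wwtr1, which encodes TAZ itself, had signals of 5388 and 5455 in siTIMP1, against 6555 and 6687 in siControl, without overlap (log2 fold change -0.33, limma adjusted p = 0.0883). The kinase Lats2, an inhibitor of YAP and TAZ, had a value of 0.52, the receptor kinase Axl 0.21 and Wwc1, a regulator upstream of the LATS kinases, -0.40.

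Of 4 further CCN genes, the family of Ctgf and Cyr61, 3 were tested. Wisp1 had signals of 10731 and 10644 in siTIMP1, against 8851 and 5715 in siControl (log2 fold change 0.54, limma adjusted p = 0.245). Wisp2 had signals of 519.0 and 467.2 in siTIMP1, against 510.2 and 234.3 in siControl, a value of 0.47. In both, siControl replicate 2 was the lowest array. Nov, near background, had a value of -0.61. The median of the 3 was 0.47, or 0.84 without siControl replicate 1 and -0.08 without siControl replicate 2.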

How the data were processed

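RNA of 4 NIH3T3 samples, labelled with Cy3, was measured on Agilent arrays of 1 colour. The deposited intensity values are scanner output of single spots, and the submitters' processing notes name Agilent Feature Extraction 11.5.1.1. The processed signal is background-subtracted and detrended within the array, per the file headers. The authors' value table holds log2 values equal to log2 of that signal minus 6.90 to 6.96, 1 constant per array, with column medians of -3.99 and -3.91 for siTIMP1 and -3.94 and -3.86 for siControl. This match to the same arrays gave its scale, centring and direction.

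The 75th percentile of the non-control spots on an array was subtracted from its log2 processed signals, without outlier spots (136 to 250 per array), and spots of 1 probe were averaged. Tested probes (26015 of 56605) had values on every array and lay well above background on both arrays of either group. Groups were assigned from the titles and compared with limma 3.58.1 (lmFit, then eBayes with a variance trend) in R 4.3.3, with p-values adjusted over all tested probes (Benjamini-Hochberg) at a threshold of 0.05. All p-values and adjusted p-values in the text come from this fit unless an alternative is named. A gene is its tested probe of highest mean. Gene names are those of the array files, and 53 of 64 member probe accessions were found in the RefSeq table, all under the member's name. Promoters are from RefSeq.

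The members and all gene lists were chosen with earlier results of these data known. Every member is named. Values per array are given for the 5 members of smallest p in each role, and up to 4 genes of smallest p are named in each further list. The fit was tested on simulated data. Alternatives were other background corrections, normalisations, filters, variance priors, probe summaries and thresholds, the authors' table, and leaving out each array. Figures were drawn with matplotlib 3.10.9.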

Additional observations from a re-analysis of the deposited data

How the results depend on the processing

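The number of members called lower was 2 (Tgfbr1 and Tgfbr3) with no filter on dim probes, with robust eBayes and at an adjusted p under 0.1. Those settings called 0.99%, 1.35% and 2.45% of all genes in that order, against 0.788% in the main fit. The number was 0 in the other alternatives that kept all 4 arrays. Leaving out 1 array gave 0 to 1 members called higher and 0 to 3 called lower. Without siControl replicate 1, when 5.99% of all genes were called, Tgfb2 was called higher and Cyr61, Tgfbr1 and Tgfbr3 lower. Without siControl replicate 2, with 1.69% of genes called, Tgfbr1 and Tgfbr3 were called. Without either siTIMP1 array, and without a variance trend, no gene was called.

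The median log2 fold change of all members was 0.00664 after quantile normalization, 0.00285 with the percentile taken over detected probes, -0.00999 averaging the probes of each gene, and -0.0346 to 0.0329 leaving out 1 array. For the contractile genes it was 0.0258 with normexp, 0.00727 with quantile normalization, 0.00743 with the detected percentile, -0.00711 with the mean of probes, and 0.0151 to 0.0587 leaving out 1 array. For ligands, latency proteins and receptors it was -0.0368 with quantile normalization and -0.0890 to 0.0153 leaving out 1 array. For SMADs and feedback genes it was -0.0478 with the mean of probes and -0.0683 to 0.0288 leaving out 1 array. For secreted and surface targets it was 0.117 with quantile normalization and 0.0619 to 0.195 leaving out 1 array. The cause was not tested. With 1 array left in a group, limma assumes that it varies like the others. The members called in an alternative kept their sign in all of them. They were picked by these same runs, so this is no check. Some uncalled members kept their sign too, Tgfb3 and Smad3 among them. Other uncalled members did not, Acta2 running from -0.04 to 0.21 and Cnn1 from -0.21 to 0.72. No paired analysis was possible because the labels give no replicate numbers. The replicate numbers used here follow the order of the samples in each group and link no arrays across groups. With 1 slide, no slide block could be fitted.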

Other observations

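Beside the members, a secreted gene of the further lists had siControl replicate 2 as the lowest array. Postn, which encodes the matrix protein periostin, had signals of 6488 and 5890 in siTIMP1, against 5386 and 3091 in siControl (log2 fold change 0.55, limma adjusted p = 0.319). The gene was picked out after its values were seen. The median absolute difference between replicates over tested genes was 0.12 in siTIMP1 and 0.15 in siControl on the log2 scale.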
